A study of Oryza sativa with 6 samples.

Results

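Among rice seedlings of a single genotype, wild-type Hwayoung, 72 of 57194 probe sets varied at least 3-fold between 3 arrays. They were chosen by the wild-type signals, as probe sets with a mean linear signal of 200 or more over the wild-type arrays and a highest signal at least 3 times the lowest, leaving out the 123 identifiers that begin with AFFX and the 64 that begin with RPTR. A probe set is a group of short probes on the array that report one transcript or a few related ones. Of 14760 probe sets that met the limit on the mean, the 72 were 0.488%. Because the wild-type signals chose them, the wild-type spread is given as a description, with no test.

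The study hybridized RNA of whole seedlings, 11 days old and grown on agar with sucrose, to Affymetrix rice arrays. The mutant group was 3 arrays of seedlings with a T-DNA insertion in CHR729, which encodes a CHD-type chromatin remodelling protein. The wild-type group was 3 arrays of the cultivar Hwayoung without the insertion, and the cultivar of the mutant is not among its own label entries. The labels call the arrays biological replicates, do not say how many seedlings went into each, and give no pairing, day or batch, so p-values measure the spread between these samples. CHR729 itself could not be matched to a probe set and was not analysed here. In RNA of whole seedlings, fewer cells of a type and less RNA per cell cannot be told apart.

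Transcripts that differ between plants of one genotype are often those of genes that respond within a short time to touch, wounding, cold or microbes. Jasmonate, a lipid-derived hormone of wound and defence responses, acts by removing JAZ repressor proteins, and JAZ genes are themselves induced by it. DREB1 transcription factors switch on cold-response genes and are induced by chilling. Pathogenesis-related proteins, chitinases and enzymes of diterpenoid phytoalexin synthesis are made by rice in response to infection or elicitors. This is background on the gene classes; no stress was measured in these seedlings.

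The 72 probe sets named few known genes. In all, 42 named 1 gene, 30 named none, and 14 belonged to the 13 genes that have a name and not only a locus number. The named genes were those of jasmonate signalling (OsJAZ13, OsbHLH148), other transcription factors (DREB1B, OsWRKY24, OsMyb4, OsEIL1), oxylipin and defence products (CM-LOX2, PBZ1, CYP71Z7, OsChia2b), a stress-associated zinc finger protein (OsSAP5), an amino acid transporter (BAT1) and an auxin conjugate hydrolase-like protein (ILL6). The share of probe sets that named 1 gene was 58.3%, against 77.4% of all probe sets with a wild-type mean of 200 or more. Identifiers with the prefix OsAffx made up 27.8%, against 10.3% of those probe sets. Identifiers ending in _x_at, _s_at or _a_at, whose probes can also match other transcripts, made up 26.4%, against 29.3% of those probe sets, where the ending _f_at was counted too. The 72 had 69 different identifier stems, with 3 probe sets of one stem and 2 of OsSAP5. Whether different stems report different transcripts was not tested.

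The ratio of highest to lowest wild-type signal lay between 3.02 and 31.2, with a median of 3.84, and it was under 4 in 43 probe sets and above 5 in 16. The median ratio of all probe sets with a wild-type mean of 200 or more was 1.20. Just inside the ratio limit were OsAffx.32222.1.S1_at (3.02), LOC4334438 (3.03) and OsAffx.4669.1.S1_at (3.05). Just outside it were LOC4350622 (2.98) and, within rounding of the limit, OsAffx.18566.1.S1_x_at and LOC4347708. Just inside the limit on the mean were LOC4346529 (207), OsAffx.32313.1.S1_at (209) and Os.40428.1.S1_at (211). Just outside it were LOC4334017 (188), OsAffx.32254.1.A1_at (189) and a second probe set of BAT1 (194).

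The probe sets fell into 4 groups by which wild-type array was highest and which lowest. The largest group, 30 probe sets, was highest in wild-type replicate 1 and lowest in replicate 3. In 17 the reverse held, with replicate 3 highest and replicate 1 lowest. Another 17 were highest in replicate 2 and lowest in replicate 3, and 8 were highest in replicate 1 and lowest in replicate 2. None had the other 2 possible orders, which 9.44% and 17.2% of all probe sets with a wild-type mean of 200 or more had. No single wild-type array was therefore highest or lowest in all 72. Their summed signal was 0.269%, 0.241% and 0.190% of each mutant array's total, against 0.458%, 0.338% and 0.215% in wild-type replicates 1, 2 and 3.

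**Figure D1:**
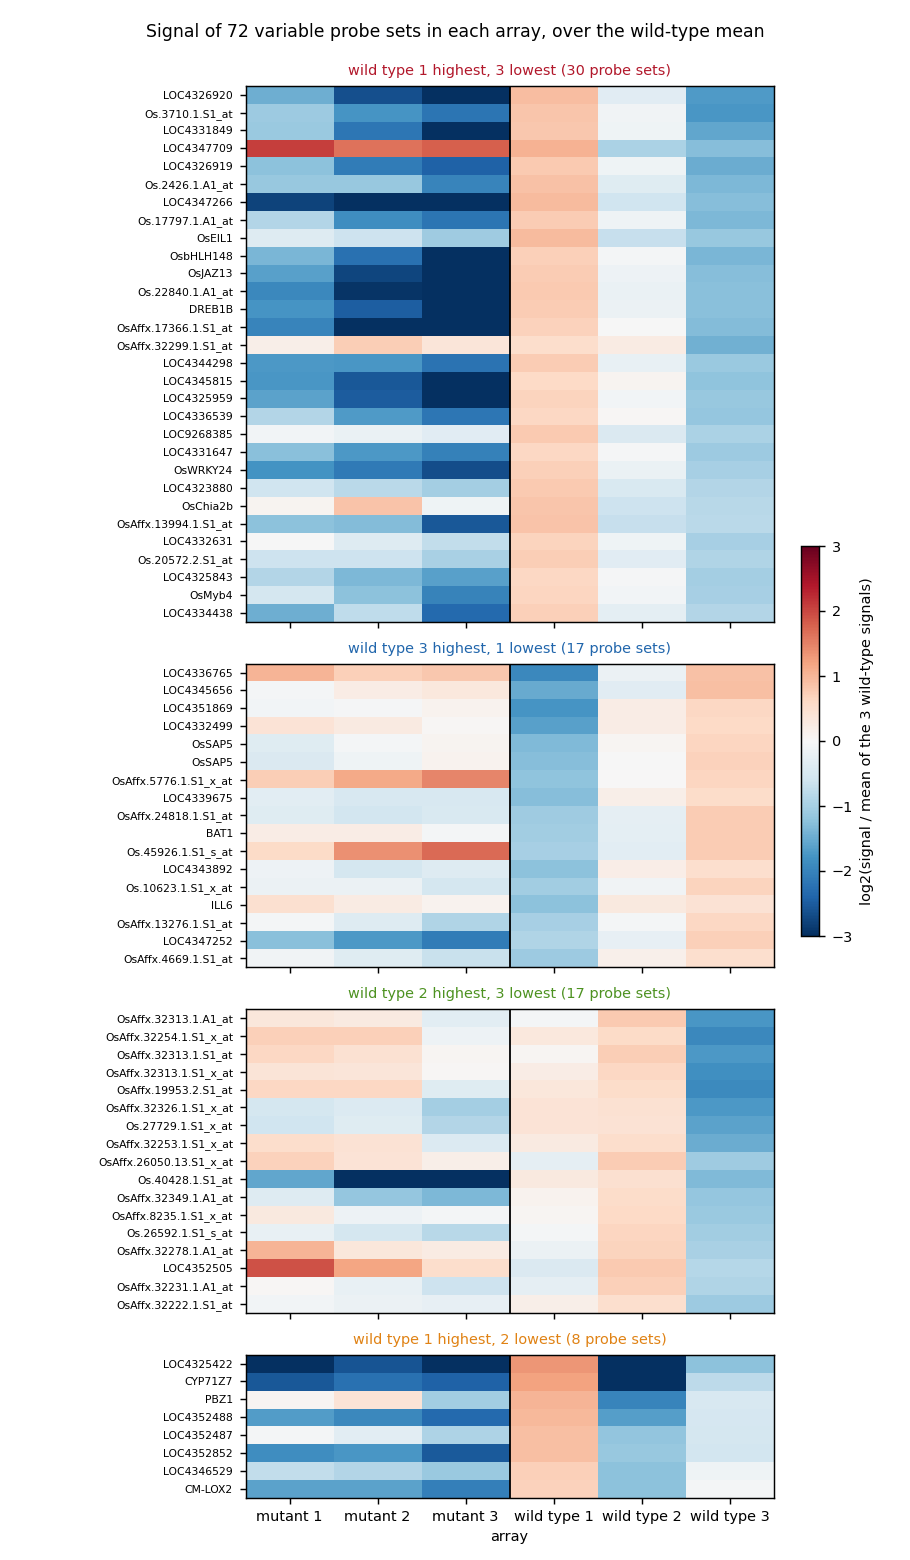
Log2 of each probe set's signal over its wild-type mean (colour, ending at 3 either way) in the 3 mutant arrays (left of the line) and the 3 wild-type arrays (right), in 4 panels by which wild-type array was highest and lowest. The panels hold 30, 17, 17 and 8 probe sets, and in 25 of the 30 of the first panel the mutant arrays had the same order.

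The group of 30 held all the named transcription factor genes and OsJAZ13. In the sentences that follow, the 3 signals of each genotype are those of replicates 1, 2 and 3, on the linear scale of the deposited table. OsJAZ13, a JAZ repressor of jasmonate responses, had signals of 465, 212 and 92.9 in the mutant, against 2442, 1287 and 589 in wild type. OsbHLH148, a basic helix-loop-helix factor that binds JAZ proteins, had 691, 383 and 205 in the mutant, against 2959, 1726 and 698 in wild type. In both genes every mutant array lay below every wild-type array, in OsbHLH148 by a few units only. In both genotypes replicate 1 was highest and replicate 3 lowest.

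DREB1B, a cold-response factor of the AP2/ERF family, showed 487, 299.5 and 146 in the mutant, against 2811, 1483 and 704 in wild type. OsWRKY24, a WRKY transcription factor, showed 183, 144 and 100.5 in the mutant, against 1027, 548 and 317 in wild type. The genotypes did not overlap in either gene, and the same array was highest in both genotypes by its replicate number. OsMyb4, a MYB factor known from cold tolerance work, showed 896, 549.6 and 323 in the mutant, against 2016, 1226 and 656 in wild type. Its mutant arrays shared that order, but the highest of them lay above the lowest wild-type array.

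OsEIL1, an EIN3-like factor of ethylene signalling, had 181, 154 and 112 in the mutant, against 455, 145 and 107 in wild type. The RefSeq gene table gives this symbol to 2 neighbouring loci; these values are of LOC4332697, also called OsEIL1b, while a probe set of LOC107276358, also called OsEIL1a, had 3241, 3414 and 3116 in the mutant, against 3718, 3919 and 3971 in wild type. OsChia2b, a chitinase, had 458, 788 and 399.7 in the mutant, against 780 in wild-type replicate 1 and 281 and 245 in replicates 2 and 3. In both genes a single wild-type array was high and the rest of the wild-type signals lay within or below the mutant range. The other 23 probe sets of the group had no gene name. Among them LOC4326920 had 122, 54.3 and 29.7 in the mutant, against 641, 267 and 103 in wild type, so that the spread within each genotype was several-fold and the groups overlapped.

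The 3 highest wild-type ratios, those of LOC4325422, CYP71Z7 and PBZ1, belonged to the 8 probe sets that were high in wild-type replicate 1 and low in replicate 2, all of which named 1 gene. Ratios in those 8 ran from 3.79 to 31.2, with a median of 5.23. LOC4325422, which has no gene name, had 171, 253 and 180 in the mutant, against 3765, 121 and 649 in wild type. CYP71Z7, a cytochrome P450 of the family that makes diterpenoid phytoalexins, had 43.1, 53.9 and 46.8 in the mutant, against 584, 27.8 and 145 in wild type. The wild-type range of both genes enclosed all 3 mutant signals, and the mutant signals stayed within a narrow band.

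PBZ1, a PR10-type pathogenesis-related protein inducible by probenazole, had 2892, 3716 and 1354 in the mutant, against 5654, 714 and 2020.5 in wild type. It varied in both genotypes, with ratios of 2.74 in the mutant and 7.92 in wild type, but different replicate numbers were high. CM-LOX2, a lipoxygenase, had 90.5, 90.2 and 66.4 in the mutant, against 444, 117 and 267 in wild type. All its mutant signals lay below the lowest wild-type signal. LOC4352488 had 339, 286 and 215 in the mutant, against 2138, 345 and 769 in wild type, and its groups were likewise apart, by a few units.

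In the 17 probe sets that were high in wild-type replicate 3 and low in replicate 1, the mutant ratio had a median of 1.30, with a range of 1.13 to 2.18. OsSAP5, an A20/AN1 zinc finger stress-associated protein, had 223, 272 and 302 in the mutant, against 114, 295 and 444 in wild type, in the first of its 2 probe sets. The second probe set shares its identifier stem and gave 208, 255 and 302 in the mutant, against 116, 277 and 450.5 in wild type. Both readings placed every mutant array inside the wild-type range. BAT1, an amino acid transporter, had 279, 279 and 232 in the mutant, against 116, 197 and 408 in wild type. ILL6, which resembles hydrolases that free auxin from its amino acid conjugates, had 517, 439.7 and 402 in the mutant, against 158, 458 and 505 in wild type. In ILL6 the wild-type spread came from a low replicate 1.

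Among the unnamed genes of that group, LOC4336765 had 766, 623 and 656 in the mutant, against 98.9, 337 and 698 in wild type. LOC4345656 had 845, 1031 and 1109.7 in the mutant, against 313, 696 and 1649.7 in wild type. LOC4351869, named here after its values were seen, had 1904, 1959 and 2192 in the mutant, against 596, 2365 and 3108 in wild type. Each of the 3 had a wild-type ratio above 5 and a mutant ratio under 1.5, and their genotypes overlapped.

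**Figure D2:**
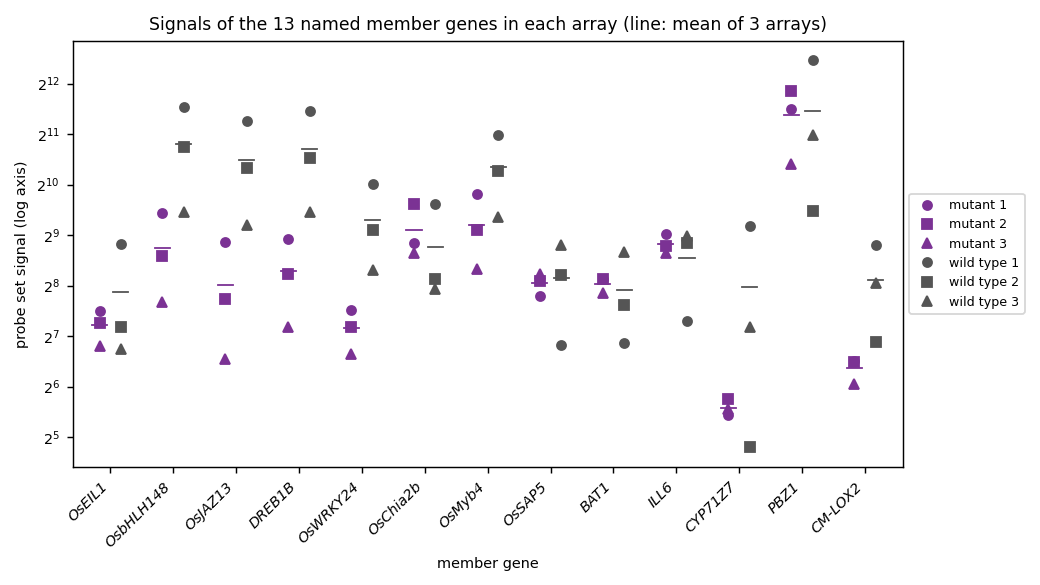
Signal (log axis) of the 13 named genes in each mutant array (left of each pair) and wild-type array (right), with a line at the mean of 3 arrays; OsSAP5 is shown by 1 of its 2 probe sets. The mutant signals of OsJAZ13, OsbHLH148, DREB1B, OsWRKY24 and CM-LOX2 all lie below the wild-type signals, while those of OsSAP5 lie inside the wild-type range.

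The last 17 probe sets, highest in wild-type replicate 2 and lowest in replicate 3, contained no named gene. Of these, 16 named no gene at all, 13 had the OsAffx prefix and 9 had identifiers whose probes can match other transcripts. The 3 probe sets of the stem shared by OsAffx.32313.1.A1_at belong here, and that one had 807, 771 and 509.7 in the mutant, against 615, 1106 and 189 in wild type. LOC4352505, the only gene of the group, had 3214, 1926 and 1229 in the mutant, against 628, 1454 and 469 in wild type. Wild-type replicate 3 was low throughout this group, and mutant replicate 3 was the lowest mutant array in 16 of the 17. Over the 17 probe sets the median signal, divided by each probe set's wild-type mean, was 1.27, 1.21 and 0.801 in the mutant, against 1.08, 1.51 and 0.397 in wild type.

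Control probe sets for RNAs that are added during processing, not transcribed by the seedlings, moved with that group in wild type. The 21 bright probe sets for the bacterial controls bioB, bioC and bioD had medians of 1.04, 1.07 and 1.04 times the wild-type mean in the mutant, against 0.874, 1.47 and 0.675 times in wild type. All 21 were highest in wild-type replicate 2 and lowest in replicate 3, with wild-type ratios of 1.67 to 2.69. All 6 probe sets for the phage control cre and 17 of 20 for the Bacillus controls had the same wild-type order, with smaller median ratios of 1.29 and 1.39. Of the 1526 OsAffx probe sets with a wild-type mean of 200 or more, 18.1% had this order, against 11.4% of all such probe sets. The part of the control pattern in the signals of the 17 probe sets was not tested.

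**Figure D3:**
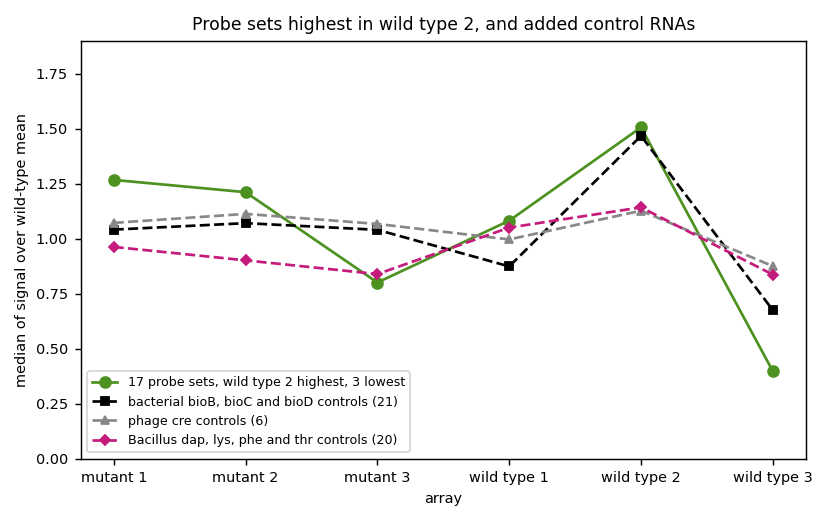
Median of signal over wild-type mean in each array, mutant arrays left and wild-type arrays right, for the 17 probe sets highest in wild-type replicate 2 (line) and for 3 kinds of added control RNA (dashed). The bacterial controls and the 17 probe sets peak in wild-type replicate 2, at 1.47 and 1.51, and both are lowest in wild-type replicate 3.

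Ratios of 3′ to 5′ signal, a measure of how intact the labelled RNA was, were read for each array. For actin they were 3.99, 3.84 and 4.03 in the mutant, against 3.88, 3.54 and 3.13 in wild type. For a second actin set they lay between 6.98 and 7.03 in the mutant, and were 7.68, 7.93 and 6.27 in wild type. For GAPDH they were 2.46, 2.61 and 2.73 in the mutant, against 2.46, 2.78 and 2.48 in wild type. Wild-type replicate 3 had the lowest actin ratio in both sets, and both actin sets spread more among wild-type arrays than among mutant arrays. The part of RNA quality in the spread was not tested.

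Marker genes of plant parts were read from lists of gene symbols. None of the 22 root, 32 photosynthetic, 50 seed or 7 pollen probe sets of the marker lists was among the 72, and 5, 27, 12 and 1 of them had a wild-type mean of 200 or more. The summed root marker signal was 5418, 5527 and 5214 in the mutant, against 6328, 5762 and 5376 in wild type. The root list held OsRCCR1 of chlorophyll breakdown, with 650, 779 and 689 in the mutant, against 1509, 1189 and 1015 in wild type. The summed photosynthetic signal was 125408, 116036 and 108559 in the mutant, against 124625, 126861 and 132394 in wild type. Photosynthetic marker transcripts were thus present in all 6 seedling samples. The highest over lowest wild-type sum was 1.18 for root, 1.06 for photosynthetic, 1.08 for seed and 1.11 for pollen markers. The root, seed and pollen sums rested mostly on a few bright probe sets, so they say little about tissue mixture. The brightest of the seed list were those of GluTR and OsSSI2, and that list also held the haemoglobin genes OsNSHB1 and OsNSHB2. Most of the pollen sum came from a single probe set of OsCP1. The part of tissue mixture in the spread was not tested beyond these sums.

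The mutant arrays played no part in the choice, so the spread among them is a separate measurement. The highest mutant signal was at least 3 times the lowest in 10 of the 72 probe sets, or 13.9%, against 0.278% of all probe sets with a wild-type mean of 200 or more. It was at least 2 times the lowest in 21, or 29.2%, against 1.5%, and under 1.5 times in 29. The median mutant ratio was 1.66, within a range of 1.12 to 5.13, against 1.13 for those probe sets. The 10 with a ratio of 3 or more included OsJAZ13 (5.01), OsbHLH148 (3.38) and DREB1B (3.34). Of the 10, 7 had a mutant mean of 200 or more, and the rest were dimmer in the mutant. OsAffx.17366.1.S1_at, which names no gene, had the highest mutant ratio (5.13), with 675, 336 and 132 in the mutant, against 4264, 2629.6 and 1085 in wild type. LOC4331849 had a ratio of 4.77, with 431, 208 and 90.3 in the mutant, against 1623, 843 and 312 in wild type.

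Spread in the mutant lay mostly in the group of 30 led by wild-type replicate 1. Of the 10 probe sets with a mutant ratio of 3 or more, 9 belonged to it, and its median mutant ratio was 2.36. The median was 1.30 in the group led by wild-type replicate 3, 1.56 in that led by replicate 2 and 1.53 in the 8 high in replicate 1 and low in replicate 2. In 25 of the 30, or 83.3%, mutant replicate 1 was highest and mutant replicate 3 lowest. Among all probe sets with a wild-type mean of 200 or more and this wild-type order, 32.5% also had it in the mutant. In the group led by wild-type replicate 3 the order matched in 6 of 17, against 17.4% of such probe sets with that order. It matched in 3 of 17 in the group led by replicate 2, against 12.5%, and in 0 of 8 in the last group, against 7.95%.

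Over all 72 probe sets the order by replicate number was the same in both genotypes in 34, or 47.2%, against 16.5% of all probe sets with a wild-type mean of 200 or more. The mutant order with replicate 1 highest and replicate 3 lowest occurred in 49 of the 72, against 28.7%. A replicate number is only a name here, since no label says that equal numbers were grown or processed together, and members that vary together are not independent of each other. When the same limits were applied to the mutant arrays, 39 probe sets passed, which is 0.264% of those with a mutant mean of 200 or more. They shared 7 probe sets with the 72, which is 9.72% of the 72 and 17.9% of the 39.

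**Figure D4:**
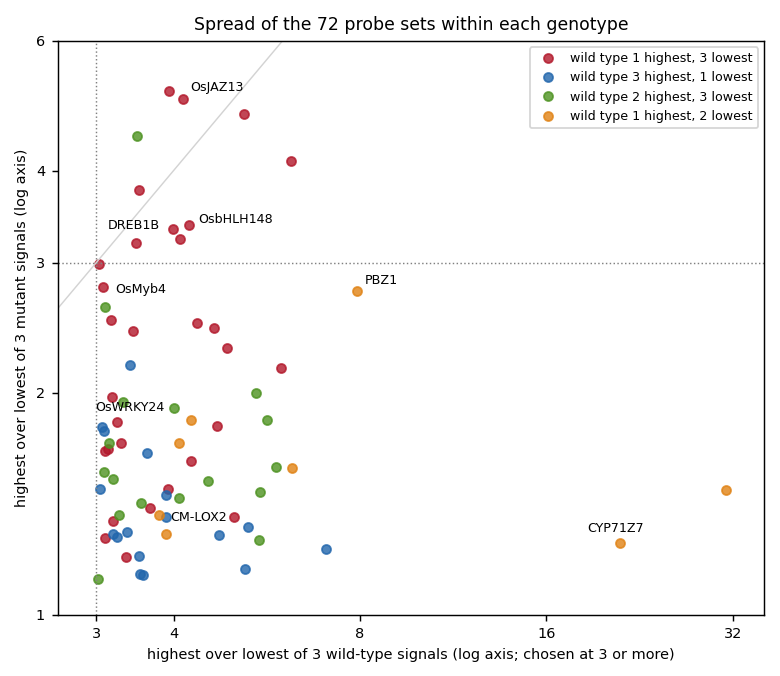
Ratio of highest to lowest signal among 3 mutant arrays (y axis, log) against that among 3 wild-type arrays (x axis, log) for the 72 probe sets, coloured by the wild-type array that was highest and lowest; dotted lines mark a ratio of 3. Of the 10 points at or above 3 on the y axis, 9 belong to the group highest in wild-type replicate 1 and lowest in replicate 3, and CYP71Z7 lies far right and low.

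Whether the variable transcripts also differed by genotype was asked with limma's moderated test on log2(signal + 32), with Benjamini-Hochberg adjustment across the 57194 probe sets. At an adjusted p under 0.05, 15 of the 72 fell in the mutant, 3 rose, and 54 did not pass, 14 of them with an unadjusted p under 0.05. The background was 4.43% lower and 5.48% higher among all tested probe sets. Among those with a wild-type mean of 200 or more it was 12.7% lower and 10.2% higher, against 20.8% and 4.17% of the 72. In either direction 25% of the 72 passed, against 9.91% of all tested probe sets and 22.9% of those with a wild-type mean of 200 or more. The wild-type arrays that chose the 72 also enter this comparison, so neither the wide error nor the split between lower and higher calls is independent of the choice.

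The 15 that fell had log2 differences from -2.74 to -1.28, with a median of -1.92 and adjusted p from 0.00631 to 0.0292. Of these, 11 came from the group of 30 led by wild-type replicate 1. OsJAZ13 fell by 2.35 on the log2 scale (SE 0.51, n = 3 per genotype, adjusted p = 0.0164 by limma). DREB1B fell by 2.23 (SE 0.45, adjusted p = 0.0122 by limma) and OsWRKY24 by 1.80 (SE 0.32, adjusted p = 0.0069). OsbHLH148 fell by 1.92 (SE 0.47, adjusted p = 0.0289 by limma). CM-LOX2 fell by 1.28 (SE 0.32, adjusted p = 0.0292 by limma). These 5 were the only named genes among the 15. With each array left out in turn, OsWRKY24 stayed under the threshold each time (highest adjusted p 0.034 by limma). OsJAZ13 missed it without mutant replicate 2 or 3 or wild-type replicate 2 (0.0654, 0.061 and 0.0687), and DREB1B without wild-type replicate 2 (0.0548). OsbHLH148 missed it without mutant replicate 2 or 3 or wild-type replicate 1 or 2 (0.0715 to 0.113), and CM-LOX2 without any 1 of the mutant replicates or wild-type replicate 3 (0.0613 to 0.111).

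The other 10 that fell had locus numbers or probe set identifiers alone. LOC4347266 had 34.7, 15.3 and 14.2 in the mutant, against 460.2, 158 and 98.9 in wild type, and the lowest adjusted p of the 72 (log2 difference -2.13, SE 0.37, adjusted p = 0.00631 by limma). OsAffx.17366.1.S1_at had the largest fall, -2.74 (SE 0.52). LOC4345815 fell by 2.25 (SE 0.44), with 334, 192 and 88.9 in the mutant, against 1694, 1173 and 482 in wild type. LOC4344298 fell by 1.59 (SE 0.34), with 274, 269 and 197 in the mutant, against 1531, 777 and 418 in wild type. The wild-type signals of both genes lay wholly above the mutant signals.

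LOC4347252 was the single fall among the 17 probe sets led by wild-type replicate 3, with 138, 100.4 and 77.0 in the mutant, against 176, 278 and 539 in wild type (-1.30, SE 0.30). Os.40428.1.S1_at was the single fall among the 17 led by replicate 2, with 71.9, 24.2 and 16.1 in the mutant, against 257, 293 and 83.9 in wild type (-1.76, SE 0.37). LOC4352852 joined CM-LOX2 among the 8 high in replicate 1 and low in replicate 2, with 304, 327 and 191 in the mutant, against 2059, 504 and 749 in wild type (-1.67, SE 0.40). The genotypes were apart in all 3.

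The 3 that rose had no gene name. LOC4347709 had 907, 668 and 746 in the mutant, against 449, 112 and 89.6 in wild type, a rise of 1.97 (SE 0.40, adjusted p = 0.0124 by limma). Os.45926.1.S1_s_at had 473, 818 and 1032 in the mutant, against 158, 255 and 537 in wild type, a rise of 1.29 (SE 0.36, adjusted p = 0.0464 by limma). OsAffx.5776.1.S1_x_at had 386, 506 and 640.3 in the mutant, against 99.3, 231 and 360.1 in wild type, a rise of 1.16 (SE 0.32, adjusted p = 0.0469 by limma). The genotypes were apart in the first and the last of these and overlapped in Os.45926.1.S1_s_at.

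The 54 that did not pass had log2 differences between -1.73 and 1.34, with SEs of 0.29 to 0.84. For OsMyb4 the log2 difference was -1.07 (SE 0.38, adjusted p = 0.121 by limma) and for CYP71Z7 it was -1.23 (SE 0.61, adjusted p = 0.276 by limma). For LOC4325422 it was -1.67 (SE 0.84, adjusted p = 0.285 by limma), although wild-type replicate 1 stood far above every mutant array. Several of these values rested on 1 array. The wild-type arrays left out below also chose the 72, so dropping a probe set's lowest or highest one shifts its wild-type mean by construction. Without wild-type replicate 2, CYP71Z7 was called lower (-2.05, adjusted p = 0.0245 by limma), as were LOC4325422 (-2.80, 0.0263), LOC4352488 (-2.10, 0.0143) and LOC4346529 (-1.02, 0.0225). Without wild-type replicate 1, CYP71Z7 and LOC4325422 had -0.37 and -0.48, neither called. OsSAP5, BAT1, ILL6, PBZ1, OsChia2b and OsEIL1 had log2 differences between -0.36 and 0.43, with SEs of 0.30 to 0.59. Without wild-type replicate 1 OsChia2b was called higher (0.92, adjusted p = 0.0336 by limma) and OsEIL1 had 0.19, which was not called. Without wild-type replicate 3, BAT1 (0.68, adjusted p = 0.0344 by limma), LOC4336765 (1.70, 0.0139) and LOC4345656 (1.03, 0.0365) were called higher. The same omission made calls of lower for OsMyb4 (-1.48, 0.0261), LOC4326920 (-2.26, 0.00791) and LOC4334438 (-1.45, 0.0248). LOC4326920 was also called lower without mutant replicate 1 (-2.04, 0.0385). The sign for PBZ1 turned to -0.46 without wild-type replicate 2 and to -0.03 without mutant replicate 2. That for OsSAP5 turned to -0.03 and -0.09 in its 2 probe sets without mutant replicate 3, and those for OsSAP5, BAT1, ILL6 and LOC4345656 turned to between -0.44 and -0.09 without wild-type replicate 1. The median SE was 0.37 for the 72 and 0.10 for probe sets with a wild-type mean of 200 or more, so only large differences could pass.

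Counted by overlap alone, all mutant arrays lay below all wild-type arrays in 17 of the 72 probe sets, or 23.6%, against 13.1% of all tested probe sets and 26.4% of those with a wild-type mean of 200 or more. They lay above in 2, or 2.78%, against 14% and 20.8%. Both directions together made 26.4% of the 72, against 27.1% and 47.2%. In 31 of the 72 all 3 mutant signals lay inside the wild-type range. The call of 15 falls depended on how the test estimates variance: with limma's robust variance option 0 fell and 0 rose, against 15 and 1 at an unadjusted p under 0.05. Leaving out an array moved the falls from 7, without mutant replicate 2 or without mutant replicate 3, to 30, without wild-type replicate 3. That array was the lowest wild-type array in 2 of the 4 groups, so leaving it out raised their wild-type means by construction.

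**Figure D5:**
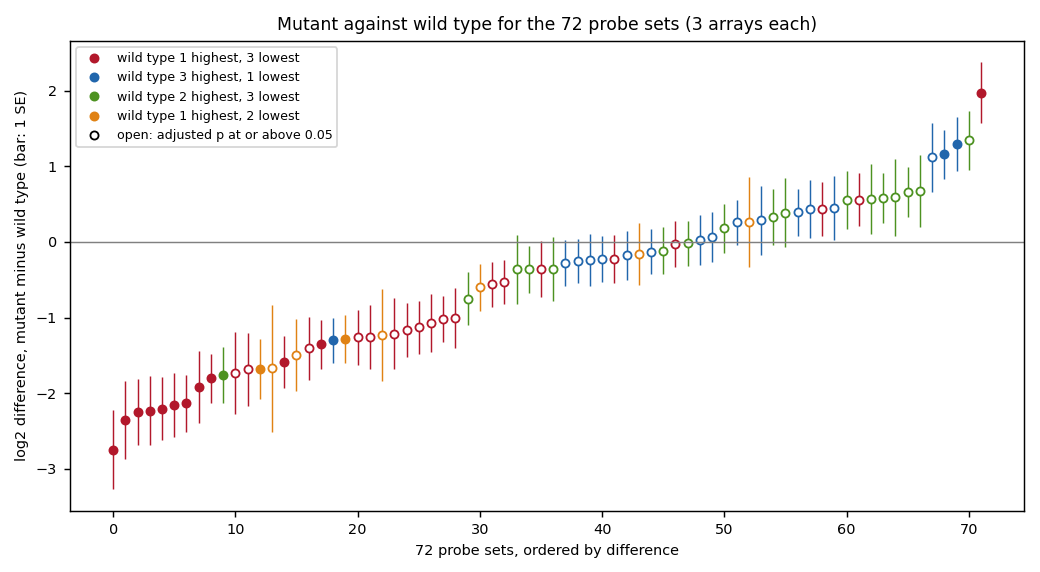
Log2 difference of mutant minus wild type for the 72 probe sets, ordered by size, with bars of 1 SE; filled points passed an adjusted p of 0.05 and open points did not, and colours give the wild-type array that was highest and lowest. Filled points number 15 below 0 and 3 above it, and most of the low ones belong to the group highest in wild-type replicate 1.

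Related genes were read from lists of gene symbols. Counts of a list include its members of the 72, which were chosen for a high wild-type ratio. The jasmonate list had 33 probe sets with a wild-type mean of 200 or more, a symbol match that also took GATA factors with a TIFY-like name and single genes such as DAD-1. Of these 33, 10 fell in the mutant and 0 rose, against the background of 12.7% lower and 10.2% higher at this brightness, and 7 had a wild-type ratio of 2 or more. The 10 and the 7 both include OsJAZ13, OsbHLH148 and CM-LOX2 of the 72. A limit on the wild-type mean leaves out transcripts that are dim in wild type and rise. Over all 48 probe sets of the list 10 fell and 2 rose, against 8.16% lower and 9.96% higher among all tested probe sets that name 1 gene, and the median log2 difference was -0.14, against -0.0045 for all tested probe sets. One of the 2 was LOX1.1, a lipoxygenase gene, with 2304, 1438 and 674 in the mutant, against 139, 109 and 145 in wild type (log2 difference 3.05, SE 0.33, adjusted p = 0.000501 by limma). OsJAZ10, another JAZ repressor, stood just outside the ratio limit at 2.97, with 1041, 546 and 312 in the mutant, against 2827, 2476 and 950.2 in wild type (log2 difference -1.68, SE 0.43, adjusted p = 0.033 by limma). Its other probe set varied less in wild type, with 3606, 1948 and 963 in the mutant, against 6977, 5556 and 3679.9 in wild type, and fell by 1.45 (SE 0.38, adjusted p = 0.0376 by limma). The symbol AOS, allene oxide synthase of jasmonate synthesis, stands for 2 loci. One was tight in wild type, with 196, 168 and 146 in the mutant, against 471, 467 and 468 in wild type. It fell by 1.32 (SE 0.10, adjusted p = 6.6e-05 by limma). The other, with a wild-type ratio of 1.25, was not called (-0.51 on the log2 scale, SE 0.20, adjusted p = 0.165 by limma).

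The cold and DREB list had 8 probe sets with a wild-type mean of 200 or more, of which 5 fell and 0 rose, against the 12.7% and 10.2% above. Over all 17 of the list the counts were also 5 and 0. DREB1G, a relative of DREB1B, had 430.5, 279 and 133 in the mutant, against 1182, 937 and 824 in wild type. Its wild-type ratio was 1.43 and its mutant ratio 3.24, and it fell by 1.80 (SE 0.30, adjusted p = 0.00451 by limma). CBF3, also of the DREB1 type, fell by 1.25 (SE 0.20) with a wild-type ratio of 1.73. All of DREB1B, DREB1G and CBF3 were highest in replicate 1 and lowest in replicate 3 in both genotypes.

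Of 6 WRKY probe sets as bright, 3 fell and 0 rose, against the same background, with the same counts over all 7 of the list. Those that fell were OsWRKY24, of the 72, and 2 probe sets of a single gene, OsWRKY71. A mutant ratio of 2 or more was seen in 3 of the 6, against 1 with such a wild-type ratio, that of OsWRKY24. In the defence list 6 of 45 such probe sets fell and 2 rose, a share of falls near the 12.7% of the background, and 4 had a wild-type ratio of 2 or more. Of those 4, 3 were CYP71Z7, PBZ1 and OsChia2b, which the rule chose for that ratio. Over all 79 probe sets of the list 7 fell and 6 rose, one of the rises being that of Pir7b, an esterase gene, with 1212, 792 and 1062 in the mutant, against 72.5, 101 and 74.3 in wild type. OsNPR3, a relative of the salicylic acid receptor gene NPR1, had a wild-type ratio of 2.01 on a probe set ending in _x_at. That probe set had 670.2, 443 and 286 in the mutant, against 323, 648 and 574 in wild type. Other probe sets of OsNPR3 as bright had wild-type ratios of 1.80 and 1.55. The zinc finger list had 64 such probe sets, of which 12 fell and 0 rose, against the 12.7% and 10.2% above. Its symbol match also took the OsSAPK genes, which encode protein kinases. OsSAPK3 was among the 12 (-0.39 on the log2 scale, adjusted p = 0.0325 by limma). Over all 103 of the list 12 fell and 1 rose. Of the 64, 5 had a wild-type ratio of 2 or more, and these include both OsSAP5 probe sets of the 72. The lists for heat shock, calcium signalling, NAC factors, the clock, phosphate, nitrogen, iron, sugar, the cell wall and ribosomal proteins held none of the 72. Of all 14760 probe sets with a wild-type mean of 200 or more, 2.59% had a wild-type ratio of 2 or more.

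Some genes of the 72 lie close together on a chromosome, as ordered in the RefSeq gene table of assembly ASM3414082v1. On chromosome 12, which held 6 of the genes (14.6%, against 4.60% of all genes with a probe set as bright), LOC4352487 and LOC4352488 had 1 protein-coding gene between them. Between LOC4352488 and PBZ1 lay 2 genes, and between PBZ1 and LOC4352505 lay 13. LOC4352487 had 1349.7, 1119 and 736 in the mutant, against 2618, 614 and 965 in wild type, so that it, LOC4352488 and PBZ1 were all highest in wild-type replicate 1 and lowest in replicate 2. LOC4352505 was instead highest in wild-type replicate 2 and lowest in replicate 3. On chromosome 1, LOC4326919 and LOC4326920 were direct neighbours with the same order in both genotypes, and LOC4326919 had 182, 99.5 and 78.9 in the mutant, against 734, 384 and 151 in wild type. On chromosome 9, LOC4347709 was next to LOC4347708, which stood just outside the ratio limit, with 629, 606 and 517 in the mutant, against 903, 415 and 301 in wild type. Also on chromosome 9, LOC4347252 and LOC4347266 had 12 protein-coding genes between them and opposite wild-type orders. Whether probes of near-identical neighbours detect each other's transcripts was not tested.

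Other probe sets of the same genes repeated the pattern in part. For 10 genes of the 72 there were 15 further probe sets, of which 5 had the same wild-type order and 4 had a wild-type mean of 200 or more. Of those 4, 1 had the member's order, and their wild-type ratios lay between 1.32 and 2.63. A bright second probe set of LOC4334438 went against the first, with 2218, 2531 and 2555 in the mutant, against 1431, 1436 and 1883 in wild type, and was higher in the mutant (log2 difference 0.62, SE 0.12). A second OsMyb4 probe set had a wild-type ratio of 1.49, with 394, 368 and 338 in the mutant, against 493, 502 and 336 in wild type, so the 2 probe sets of OsMyb4 disagreed in size. A second BAT1 probe set, dimmer than the limit, had 241, 228 and 209.6 in the mutant, against 90.3, 189 and 303 in wild type, and shared the order of the first. A second LOC4346529 probe set, also dimmer, had a wild-type ratio of 4.06 and shared the order of the first.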

How the data were processed

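RNA of 3 CHR729 mutant and 3 wild-type rice seedling samples was measured on 6 Affymetrix arrays. The deposited table holds 1 intensity per probe set and array on a linear scale, made by the authors with MAS5 per the submitters' processing notes; the sources used here do not give its version or its background and scaling settings. Array medians lay between 67.7 and 71.2. The number of arrays limits the precision, and detection calls were not used here. Members were chosen on the linear signals. Mutant and wild type were compared on log2(signal + 32) with limma 3.58.1 in R 4.3.3 (lmFit, eBayes with an intensity trend, 2-sided), with p-values adjusted by the Benjamini-Hochberg method over 57194 probe sets; the log2 values were computed here from the deposited intensities. The test was checked on simulated data. Genes were named through the array's public annotation and the RefSeq gene table. Python 3.11.15 with pandas 2.3.3 made the tables and matplotlib 3.10.9 the plots. The members and gene lists were chosen with earlier results of these data known. Named are all members with a gene name, the 5 locus-only members with the highest wild-type ratio, members next to the limits, and others chosen after their values were seen. Alternatives were other offsets, scalings, variance estimates, limits, a replicate block and each array left out. No sequence is shown, since no sequence table was used here. Exact permutation of 3 against 3 arrays was not used, its smallest 2-sided p being 0.1.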

Additional observations from a re-analysis of the deposited data

How the results depend on the processing

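With 3 arrays per genotype and a median SE of 0.37, only large differences could pass for these probe sets. The limits set the number of probe sets found: 45 with a wild-type mean of at least 400, 383 with a ratio of at least 2 and 29 with a ratio of at least 4. At these ratio limits 21 and 5 varied 3-fold or more among mutant arrays, 143 and 16 had the same array order, 16 and 1 rose and 78 and 5 fell; with the mean limit of 400, 0 rose. Quantile normalization found 73, sharing 71, and median subtraction 74, sharing all 72. The robust variance option gave 0 rises and 0 falls among the 72, although it called 3239 higher and 2491 lower over all probe sets; the cause was not tested. Rises were 1 without the intensity trend, 1 without the 40% dimmest probe sets and 1 without identifiers ending in _x_at, _s_at, _a_at or _f_at, an alternative chosen after seeing the data. Leaving out each array gave 1 to 6 rises and 7 to 30 falls, with 1 rise and 7 falls when mutant replicate 2 was left out, 7 falls when mutant replicate 3 was, and 6 rises and 30 falls when wild-type replicate 3 was. The wild-type arrays also chose the 72, so the counts without 1 of them are not independent of the choice. A replicate block gave 27 falls and 4 rises, but no label says that equal numbers pair the samples. Deviations of equal numbers correlated at 0.04, -0.21 and 0.22 across the 14760 probe sets that met the limit on the mean. Across the 72 they correlated at 0.35, -0.28 and 0.60. An unequal pair, mutant replicate 1 and wild-type replicate 2, had 0.30 across the 14760 and 0.19 across the 72. Whether equal numbers were grown or processed together was not tested. OsbHLH148, OsJAZ13, DREB1B, CM-LOX2 and OsWRKY24 missed the threshold with robust variance, at adjusted p of 0.22, 0.172, 0.148, 0.191 and 0.0893 by limma. No named member changed direction past the threshold.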

Other observations

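The mirror of the set, probe sets with a mean of 200 or more over the mutant arrays and a mutant ratio of 3 or more, held 39, of which 32 were not among the 72. These were chosen on the mutant arrays and named after their values were seen, so their mutant spread is a description. In 34 of the 39, mutant replicate 1 was highest and replicate 3 lowest, and 21 of the 32 had a wild-type ratio under 2. OsWRKY76, a WRKY factor, had 1696, 868 and 484 in the mutant, against 1232, 1743 and 1555 in wild type. OsMYB2, a MYB factor of stress responses, had 519.9, 301 and 147 in the mutant, against 1429, 1074 and 776 in wild type. LOX1.1, a lipoxygenase gene, had 2304, 1438 and 674 in the mutant, against 139, 109 and 145 in wild type. Each varied more among mutant arrays than among wild-type arrays.

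A few of the 39 ran the other way, with mutant replicate 3 highest and replicate 1 lowest. OsNSHB1, a non-symbiotic haemoglobin gene, had 199 in mutant replicate 1, 298 in replicate 2 and 637 in replicate 3, against 186, 300.5 and 346 in wild-type replicates 1, 2 and 3, on a probe set ending in _s_at. Its other probe sets had 217, 208 and 255, and 208, 189 and 263, in the mutant, against 141, 173 and 179, and 124, 146 and 182, in wild type, so the mutant pattern rests on 1 of 3. OsNSHB2, of the same family, had 320.2, 469 and 969 in the mutant, against 301, 492 and 601 in wild type. SAUR39, a small auxin-up RNA gene, had 112, 225 and 440.1 in the mutant, against 76.2, 91.9 and 158 in wild type. On the first probe set of OsNSHB1 and on those of OsNSHB2 and SAUR39, replicate 1 was lowest and replicate 3 highest in both genotypes.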
